A study of Mus musculus with 21 samples.

Results

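T lineage genes were followed in sorted cells, named dendritic cells (DCs) in the titles, of an Aire reporter mouse strain. The set is 8 genes, Tcf7, Lef1, Gata3, Lck, Lax1, Cd3e, Thy1 and Ptcra, taken by name from a count table of 55471 genes after its Ensembl identifiers were matched to mouse symbols, and all 8 were found. The 21 libraries form 7 groups of 3 biological replicates. Lymph node (LN) cells in the CD45+CD11c+MHCII+ gate were split by the reporter, giving AGF+ cells from AGF-KI/- mice, which the titles name AireKO, AGF+ cells from AGF-KI/+ mice (KI/+ here), and AGF− cells from AireKO and from KI/+ mice. Bone marrow (BM) gave AGF+ cells from AireKO and from KI/+ mice, sorted as B220−CD24+ cells with low or no CD11b, and KI/+ cells of the B220−CD11c+MHCII+ fraction, which the titles name total DC and the design text AGF−. All groups carry the AGF-KI allele, all mice are labelled male, on C57BL/6 and 6 weeks old, and the bone marrow groups differ in gate as well as in reporter, so that these cannot be told apart. The labels do not say what AGF stands for, or whether animals were pooled.

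In the thymus, Notch signals switch on Tcf7 and Gata3, and these transcription factors, with Lef1, establish the T lineage programme. Developing thymocytes then assemble a pre-T cell receptor from the invariant chain that Ptcra encodes, a rearranged β chain and the CD3 chains, and Lck passes on its signal. Several of these genes are not restricted to T cells: Tcf7, Gata3 and Thy1 are used by innate lymphoid cells, Lax1 by B cells, and PTCRA in humans by plasmacytoid DCs.

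The libraries held 4164451 to 6055097 counts, and a count of 3, the most that a count of 0 allows at the 95% level, corresponds to 0.456 to 0.764 CPM (counts scaled to a common effective library size). The 7 libraries numbered 2, 1 in each group, went against the male label: Xist stood at 2021 to 3993 CPM in them and the Y-linked genes summed to at most 0.766 CPM, while the other 14 libraries had 0 to 31.1 CPM for Xist and sums of 329 to 566 CPM for Y-linked genes. Counts of called genes are therefore also given without them. Aire followed the labels in AGF+ cells, with 22.7, 26.5 and 26.2 CPM in LN AGF+ AireKO libraries against 132, 98.7 and 111 CPM in LN AGF+ KI/+ libraries, and with 11.5, 12.4 and 19.6 CPM in BM AGF+ AireKO libraries against 115, 108 and 79.3 CPM in BM AGF+ KI/+ libraries. In LN AGF− cells Aire did not tell the genotypes apart, with 10.5, 14.2 and 13.2 CPM in AireKO libraries against 14.9, 14.1 and 13.9 CPM in KI/+ libraries (edgeR adjusted p = 0.883). The summed level of 9 DC markers was between 5293 and 10915 CPM in all groups. Single genes weigh heavily in it, such as Cd74 with 2597 ± 141 CPM in BM AGF+ KI/+ cells (SD, n = 3). Itgax, which encodes CD11c, had 58.3 ± 43.7 CPM there, against 467 ± 119 CPM in total DCs. Of the 9 markers, 2 rose and 1 fell between these 2 groups, beside 22.8% and 21.6% of all genes.

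On GRCm38, the build of the files, GENCODE places Tcf7 at chr11:52252371-52283014, Lef1 at chr3:131110471-131224356, Gata3 at chr2:9857078-9890034, Lck at chr4:129548344-129573641, Lax1 at chr1:133679091-133690108, Cd3e at chr9:44998740-45009627, Thy1 at chr9:44043384-44048579 and Ptcra at chr17:46755663-46763712. Lef1 and Thy1 lie on the plus strand and the others on the minus strand, and all 8 are protein-coding. Antisense exons cover 13.7% of the exonic bases of Lef1 (Gm43352), 3.31% of those of Cd3e (Gm48719) and 3.90% of those of Gata3 (Gm13256). The sources used here do not give the strand setting of the counting, so reads of these partners cannot be told apart from those of the members.

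The promoters below are shown because Lck and Ptcra both rose in bone marrow AGF+ cells while Cd3e stayed near 0 there, and because Lck has a distal and a proximal start whose transcripts gene counts do not separate. RefSeq (GRCm38.p6) entries were found for 7 of the 8 genes, all but Thy1. Each window holds the 250 bases before the start on the gene's strand, with the ETS motif CAGGAAG and the E-box CANNTG in capitals wherever either stands on one of the strands.
Lck distal, chr4:129573642-129573891, minus strand: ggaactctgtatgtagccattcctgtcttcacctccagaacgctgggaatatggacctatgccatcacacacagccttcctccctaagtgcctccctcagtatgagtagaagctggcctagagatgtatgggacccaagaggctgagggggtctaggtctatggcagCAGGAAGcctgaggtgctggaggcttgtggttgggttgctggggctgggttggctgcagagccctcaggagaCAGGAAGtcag
Lck proximal, chr4:129558373-129558622, minus strand: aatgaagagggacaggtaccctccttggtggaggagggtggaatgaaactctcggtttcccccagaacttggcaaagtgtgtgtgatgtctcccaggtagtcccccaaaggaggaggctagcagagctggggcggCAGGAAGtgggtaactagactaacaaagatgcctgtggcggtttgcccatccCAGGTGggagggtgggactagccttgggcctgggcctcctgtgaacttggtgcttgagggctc
Ptcra, chr17:46763713-46763962, minus strand: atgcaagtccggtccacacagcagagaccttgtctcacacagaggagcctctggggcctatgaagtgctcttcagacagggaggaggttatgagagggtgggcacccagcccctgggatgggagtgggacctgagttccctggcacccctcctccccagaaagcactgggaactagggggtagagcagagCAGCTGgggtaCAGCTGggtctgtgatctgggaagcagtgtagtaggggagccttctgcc
Cd3e, chr9:45009612-45009861, minus strand: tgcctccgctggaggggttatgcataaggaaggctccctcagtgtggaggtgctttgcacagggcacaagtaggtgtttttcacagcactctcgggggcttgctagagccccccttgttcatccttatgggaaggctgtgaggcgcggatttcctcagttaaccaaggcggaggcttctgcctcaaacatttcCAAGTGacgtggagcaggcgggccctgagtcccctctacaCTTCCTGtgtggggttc
The distal Lck window holds 2 ETS matches and no E-box, the proximal window 1 ETS match and 1 E-box, the Ptcra window 2 E-boxes, both CAGCTG, and the Cd3e window 1 ETS match and 1 E-box. Among 32817 windows of the same length, 10.8% held CAGGAAG and 66.2% held CANNTG on either strand. Of 4 other motifs searched on both strands, the TCF/LEF motif CTTTGA was in 13.8% of all windows and its second form CTTTGT in 16.5%. The GATA motif AGATAA was in 9.99% and the RUNX motif TGTGGT in 14.04%. The distal Lck window held TGTGGT and the proximal one CTTTGT, and the Ptcra and Cd3e windows held none of the 4. The ETS and E-box matches share no letters in these windows, and a match describes the letters only.

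In lymph node, the reporter-positive cells held more Tcf7 and less Lck, Lax1, Cd3e and Thy1 than reporter-negative cells in both genotypes. Of the 7 members that passed the filter on low counts, 1 rose and 5 fell in KI/+ mice, where 10.1% of all 15884 genes tested rose and 11% fell (edgeR quasi-likelihood test, Benjamini-Hochberg adjusted p under 0.05). In AireKO mice, again 1 rose and 5 fell, against 11.4% and 13.3% of all genes. The same 6 genes passed in each genotype when the libraries numbered 2 were left out, where 877 and 1065 of all genes rose and fell in KI/+ mice, against 1603 and 1746 with them. Ptcra was not tested in lymph node, where 1 count in KI/+ AGF+ and 1 in AireKO AGF− cells were all it had in 12 libraries.

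Tcf7, which encodes the transcription factor TCF-1, stood apart from the other members. In KI/+ mice it had 412, 221 and 317 CPM in AGF+ libraries, against 146, 89.2 and 146 CPM in AGF− libraries. In AireKO mice Tcf7 had 230, 247 and 363 CPM in AGF+ libraries, against 124, 88.6 and 147 CPM in AGF− libraries. Every AGF+ library lay above every AGF− library. Tcf7 rose by 1.32 ± 0.26 on the log2 scale in KI/+ mice (SE, n = 3 against 3, edgeR adjusted p = 0.0025) and by 1.22 ± 0.26 in AireKO mice (edgeR adjusted p = 0.00314). Per kilobase of exon it was the most abundant member in all 7 groups, with a level of 121 ± 36.4 CPM per kb in LN AGF+ KI/+ cells (SD, n = 3).

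Its relative Lef1, which binds the same motif and pairs with β-catenin, was not called in either genotype. Lef1 had 2.52, 4.41 and 6.77 CPM in AGF+ KI/+ libraries, against 8.21, 3.63 and 24.3 CPM in AGF− KI/+ libraries, and the groups overlapped. Among AireKO libraries it had 0.669, 3.21 and 14.5 CPM in AGF+ cells, against 15.3, 4.15 and 39.1 CPM in AGF− libraries. The log2 differences of -1.43 ± 0.92 and -1.69 ± 0.88 did not pass the test (edgeR adjusted p = 0.305 and 0.18). With the replicate number as a block, Lef1 passed in AireKO mice, where it fell by 1.77 (edgeR adjusted p = 0.0165), and without AGF+ AireKO replicate 3 it fell by 3.35 there (adjusted p = 0.0359). It also passed in both genotypes when genes of low counts were not filtered out (edgeR adjusted p = 2.69e-05 in KI/+ and 4.6e-08 in AireKO mice).

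Gata3, the zinc finger factor of early T cell progenitors and helper cells, was low throughout. It had 3.78, 1.06 and 2.18 CPM in AGF+ KI/+ libraries, against 12.7, 2.02 and 15.4 CPM in AGF− KI/+ libraries. In AireKO mice Gata3 had 2.84, 2.01 and 1.43 CPM in AGF+ libraries, against 18.7, 5.87 and 19.2 CPM in AGF− libraries. The groups overlapped in KI/+ mice and not in AireKO mice. Gata3 fell by 2.08 ± 0.66 in KI/+ mice (edgeR adjusted p = 0.0368) and by 2.76 ± 0.66 in AireKO mice (edgeR adjusted p = 0.00693). The KI/+ call was lost without AGF+ replicate 2 (adjusted p = 0.126), AGF+ replicate 3 (0.1), AGF− replicate 1 (0.0999) or AGF− replicate 3 (0.163), and with limma voom (0.181).

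**Figure D1:**
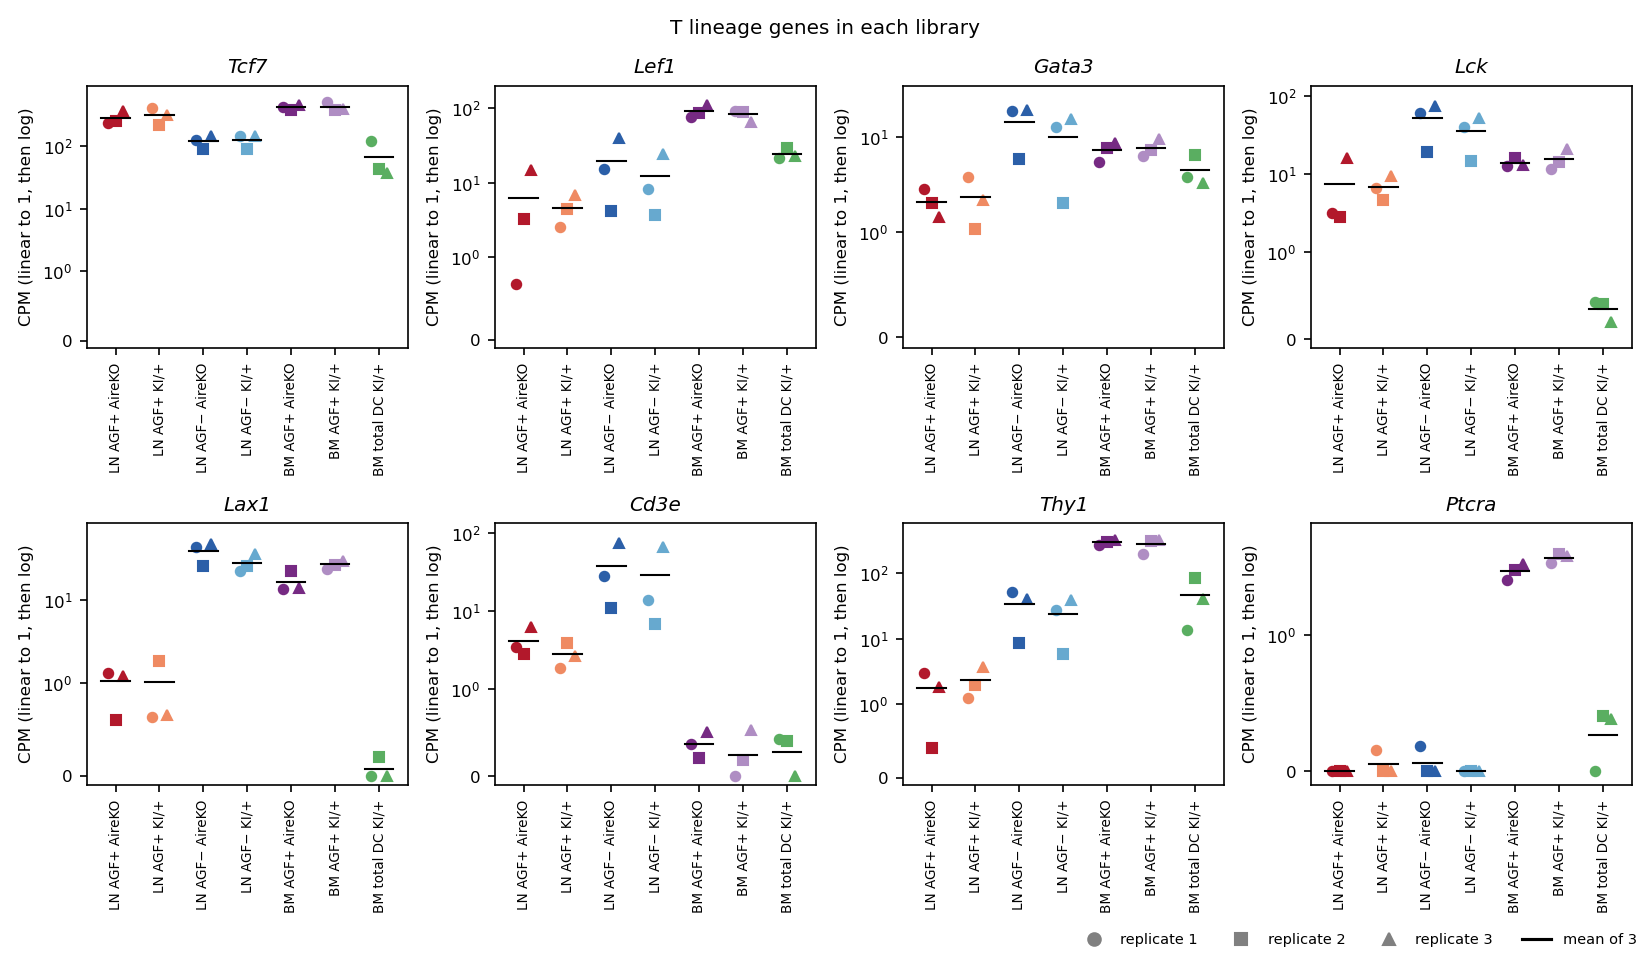
CPM of each of the 8 genes by library, on an axis that is linear to 1 CPM and logarithmic above it, in 7 groups of 3 libraries with marker shapes for replicate numbers and a line at the mean. Tcf7 stood at 221 to 412 CPM in LN AGF+ KI/+ libraries, above the 89.2 to 146 CPM of LN AGF− KI/+ libraries, Cd3e stayed under 1 CPM in all marrow libraries, and Ptcra exceeded 1 CPM in BM AGF+ libraries and no others.

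Of the signalling genes, Lax1 moved farthest. Lax1 encodes a membrane adaptor of T and B cells that dampens antigen receptor signals. It had 0.631, 1.82 and 0.655 CPM in AGF+ KI/+ libraries, against 22.2, 25.2 and 35.5 CPM in AGF− KI/+ libraries. In AireKO mice Lax1 had 1.34, 0.602 and 1.23 CPM in AGF+ libraries, against 43.3, 25.6 and 46.1 CPM in AGF− libraries. The gap between the groups was wider than the spread within either. Lax1 fell by 4.66 ± 0.38 in KI/+ mice (edgeR adjusted p = 3.51e-06) and by 5.13 ± 0.39 in AireKO mice (edgeR adjusted p = 1.09e-06), and, like Tcf7, it passed in both under each of 17 alternatives.

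Lck, the Src family kinase that phosphorylates the CD3 chains, had 6.62, 4.71 and 9.39 CPM in AGF+ KI/+ libraries, against 40.4, 14.5 and 51.8 CPM in AGF− KI/+ libraries. The AireKO values were 3.18, 2.81 and 16.2 CPM in AGF+ libraries, against 60.7, 19.2 and 74.2 CPM in AGF− libraries. The groups did not overlap within a genotype, and AGF− replicate 2 was the lowest of its group in both. Lck fell by 2.39 ± 0.64 in KI/+ mice (edgeR adjusted p = 0.0164) and by 2.82 ± 0.64 in AireKO mice (edgeR adjusted p = 0.00485). The KI/+ call was lost without AGF+ replicate 1 (adjusted p = 0.0585), AGF+ replicate 2 (0.066) or AGF− replicate 3 (0.0708).

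Cd3e, the CD3 chain that marks T cells, had 1.89, 3.95 and 2.62 CPM in AGF+ KI/+ libraries, against 13.98, 6.86 and 65.1 CPM in AGF− KI/+ libraries. In AireKO mice Cd3e had 3.51, 2.81 and 6.15 CPM in AGF+ libraries, against 28.2, 10.9 and 73.5 CPM in AGF− libraries. Replicate 3 was far above the other AGF− libraries in both genotypes. Cd3e fell by 3.33 ± 0.84 in KI/+ mice (edgeR adjusted p = 0.0119) and by 3.17 ± 0.80 in AireKO mice (edgeR adjusted p = 0.0101). In KI/+ mice the log2 difference was -1.86 without AGF− replicate 3 (adjusted p = 0.1), the call was also lost without AGF+ replicate 1 (0.0555) and with voom (0.108), and in AireKO mice it was lost without AGF− replicate 3 (0.0522) and with voom (0.0542).

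Thy1 encodes the surface glycoprotein Thy-1 of thymocytes, T cells and innate lymphoid cells. It had 1.26, 1.98 and 3.71 CPM in AGF+ KI/+ libraries, against 27.3, 5.85 and 38.3 CPM in AGF− KI/+ libraries. In AireKO mice Thy1 had 3.01, 0.401 and 1.84 CPM in AGF+ libraries, against 51.1, 8.64 and 39.4 CPM in AGF− libraries. AGF− replicate 2 was again the lowest of its group. Thy1 fell by 3.41 ± 0.77 in KI/+ mice (edgeR adjusted p = 0.00618, with voom 0.0752) and fell by 4.17 ± 0.79 in AireKO mice (edgeR adjusted p = 0.00159).

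**Figure D2:**
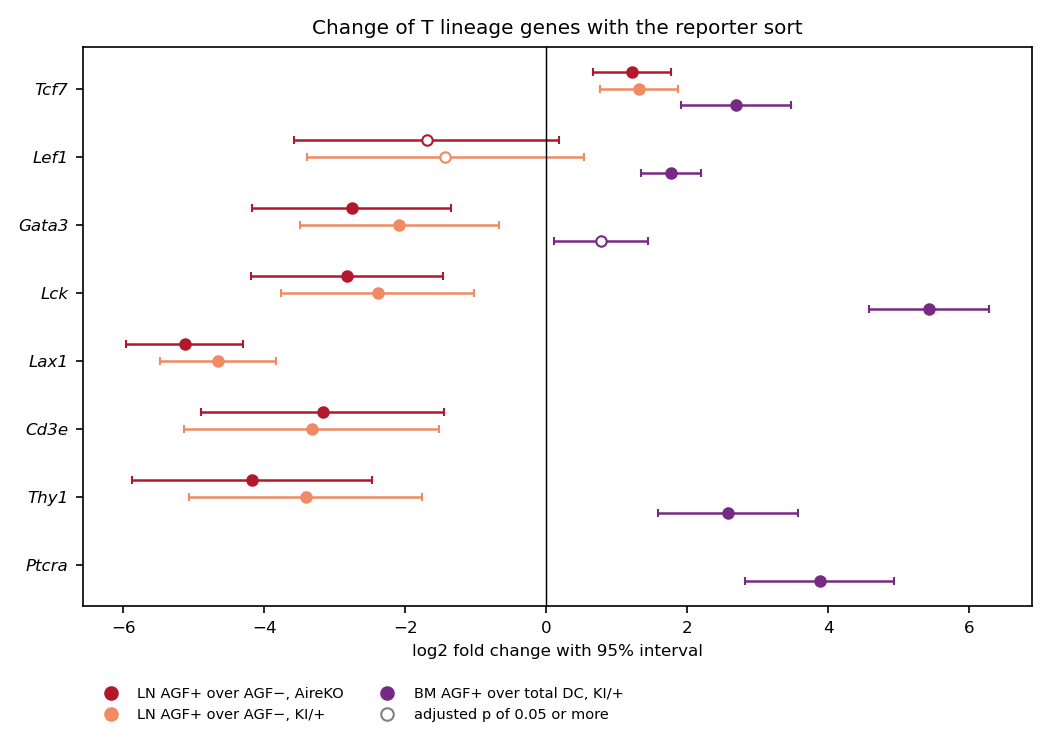
Log2 fold changes with 95% intervals (edgeR) for AGF+ over AGF− cells in lymph node of AireKO and of KI/+ mice and for BM AGF+ cells over total DCs of KI/+ mice. Filled points passed an adjusted p of 0.05, open points did not, and Cd3e and Lax1 in bone marrow and Ptcra in lymph node have no point because too few counts stood on one side or both. Tcf7 lies right of 0 in all 3, Thy1 and Lck left of 0 in lymph node and right of it in bone marrow.

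Summed markers of T cells were lower in AGF+ than in AGF− lymph node libraries, where Tcf7 was higher. The 12 T cell markers, none of them a member, summed to 50.8, 34.5 and 50.9 CPM in AGF+ KI/+ libraries, against 145, 68.0 and 264 CPM in AGF− KI/+ libraries. They summed to 36.1, 36.7 and 50.8 CPM in AGF+ AireKO libraries, against 222, 77.7 and 299 CPM in AGF− AireKO libraries. Within each AGF− group, Lck, Cd3e, Lef1 and Gata3 ranked the 3 libraries as this sum did. Lax1 did not in KI/+ mice, with 22.2, 25.2 and 35.5 CPM, nor did Thy1 in AireKO mice, with 51.1, 8.64 and 39.4 CPM. Among AGF+ KI/+ libraries Cd3e was highest in replicate 2, at 3.95 CPM, where the sum was lowest. Of the 12 markers, 0 rose and 10 fell in each genotype. Over all genes, 10.1% rose and 11% fell in KI/+ mice, and 11.4% rose and 13.3% fell in AireKO mice. Markers of natural killer cells, 10 genes, summed to 23.1 to 29.2 CPM in AGF+ KI/+ cells, against 94.6 to 312 CPM in AGF− KI/+ cells, and 9 B cell markers to 69.9 to 100.6 CPM against 351 to 775 CPM. Plasmacytoid DC markers, 8 genes, summed to 426 to 475 CPM in AGF+ KI/+ cells, against 545 to 848 CPM in AGF− KI/+ cells, and to 414 to 480 CPM in AGF+ AireKO cells, against 666 to 1287 CPM in AGF− AireKO cells. Of these 8, 0 rose and 4 fell in KI/+ mice and 0 rose and 6 fell in AireKO mice, beside the same shares of all genes. Siglech, a defining plasmacytoid DC gene, had 8.74 ± 2.07 CPM in AGF+ KI/+ cells, against 117 ± 70.4 CPM in AGF− KI/+ cells (SD, n = 3 each). General DC markers, 9 genes, summed to 6868 to 8442 CPM in AGF+ KI/+ cells, against 9601 to 10915 CPM in AGF− KI/+ cells. Of these 9, 0 rose and 4 fell in KI/+ mice and 2 rose and 5 fell in AireKO mice, beside the same shares of all genes. Flt3 and Zbtb46 had higher mean CPM in AGF+ KI/+ cells (543 against 394 and 328 against 223). The other markers had lower means there, such as Cd74 with 2494 against 3847 CPM. In AGF+ KI/+ libraries Cd3d had 7, Cd3g 2 and Trbc2 30 counts in all. In bulk libraries, fewer cells of a type and less RNA per cell cannot be told apart, and the part of these cells in the results was not tested.

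**Figure D3:**
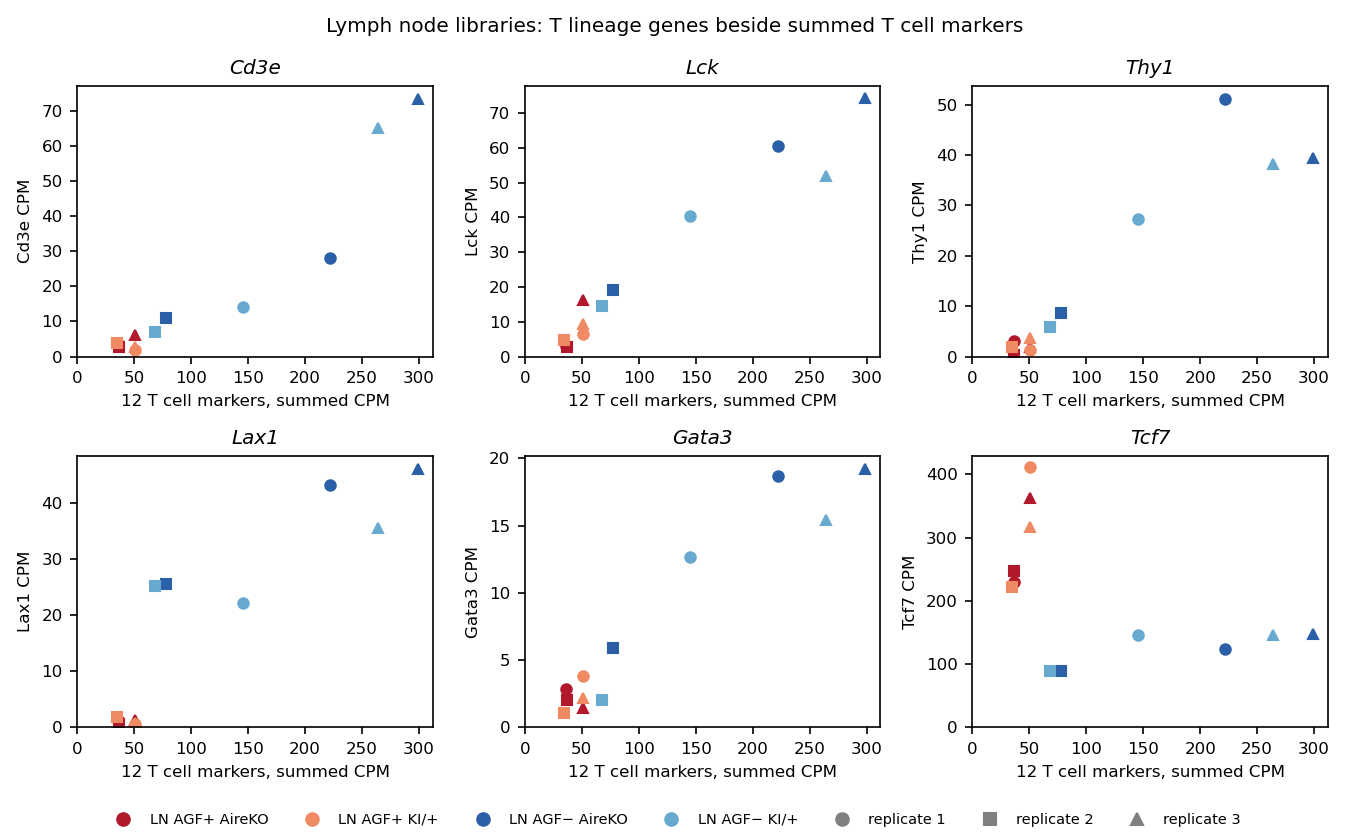
CPM of 6 members against the summed CPM of 12 T cell markers in the 12 lymph node libraries, coloured by group with marker shapes for replicate numbers. AGF+ libraries lie at 34.5 to 50.9 CPM of markers and AGF− libraries at 68.0 to 299 CPM. Cd5 and Cd6 weigh heavily in the sums of AGF+ libraries. Lax1 is at or above 22.2 CPM in all AGF− libraries, also in those of replicate 2, and Tcf7 is higher in every AGF+ library than in any AGF− library. Within AGF+ KI/+ libraries, the one with the lowest marker sum, replicate 2, also has the lowest Tcf7.

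Other T cell genes of lymph node were grouped in 5 lists, whose counts stand beside the 10.1% of all genes that rose and the 11% that fell in KI/+ mice. Of 15 genes of the receptor complex and coreceptors, 0 rose and 12 fell in KI/+ mice, with a median log2 change of -3.16 beside 0.01 over all genes tested. Examples are Cd2, an adhesion receptor, which fell by 5.07 ± 0.72 (edgeR adjusted p = 0.000239), and the costimulatory receptor Cd28, which fell by 4.27 ± 0.86 (adjusted p = 0.00292). Cd3g had 2 counts in AGF+ cells against 116 in AGF− cells, 71.5-fold lower with a counting interval of 19.4 to 597. The δ chain gene Trdc had 3 counts against 237, 97.4-fold lower with an interval of 32.9 to 476. Such intervals cover counting error only.

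Of 22 adaptors and kinases of receptor signalling, 0 rose and 15 fell in KI/+ mice (median -2.31). The Ras activator Rasgrp1 fell by 1.74 ± 0.18 (edgeR adjusted p = 2.49e-05). The adaptors Grap2 and Lat2 fell by 1.58 ± 0.22 and 1.53 ± 0.25 (edgeR adjusted p = 0.000243 and 0.0006).

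Of 21 T lineage transcription factors, 1 rose and 10 fell (median -0.71). Ikzf3, the lymphocyte factor Aiolos, fell to 7.58 ± 2.94 CPM in AGF+ cells, against 104 ± 23.9 CPM in AGF− cells (SD, n = 3 each). Ets1 fell by 2.47 ± 0.30 and Runx1 by 1.08 ± 0.12 (edgeR adjusted p = 5.97e-05 and 3.4e-05). Myb, a factor of progenitors, was the 1 that rose, by 1.16 ± 0.19 (adjusted p = 0.000746).

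Of 12 early thymocyte and Notch genes that were tested out of 14, 1 rose and 5 fell (median -0.60). Spib, an ETS factor of B cells and plasmacytoid DCs, rose by 1.09 ± 0.22 (edgeR adjusted p = 0.00313). Dntt, which adds bases at antigen receptor joints, had 0 counts in AGF+ against 111 in AGF− cells, at least 45.6-fold lower with a floor of 3 counts over the group. The Notch target Dtx1 and the adhesion receptor Cd44 fell by 2.41 ± 0.51 and 0.85 ± 0.11 (adjusted p = 0.00391 and 9.27e-05).

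Of 13 tested genes that work with or downstream of Tcf7 and Lef1, 4 rose and 1 fell (median -0.06). Axin2, a feedback inhibitor and common readout of Wnt signalling, rose to 23.0 ± 1.68 CPM in AGF+ cells, against 7.03 ± 1.41 CPM in AGF− cells, a log2 change of 1.70 ± 0.26 (edgeR adjusted p = 0.000416). The β-catenin cofactor Bcl9l rose by 1.31 ± 0.16 and the family member Tcf7l1 by 1.86 ± 0.32 (edgeR adjusted p = 5.79e-05 and 0.00105). Myc, a growth regulator and Wnt target, fell by 2.47 ± 0.34 (adjusted p = 0.00017). In AireKO mice, where 11.4% of all genes rose and 13.3% fell, the 5 lists, in the order given, had 0, 0, 1, 1 and 3 genes that rose and 12, 18, 13, 6 and 2 that fell. Without the libraries numbered 2 they had 0, 0, 1, 1 and 4 that rose and 10, 14, 9, 4 and 1 that fell in KI/+ mice, and 0, 0, 1, 0 and 3 that rose and 12, 19, 12, 5 and 2 that fell in AireKO mice. The share over all genes in that AireKO fit is not given here.

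In bone marrow, AGF+ cells of KI/+ mice held more of 6 members than total DCs: Lck, Tcf7, Lef1, Lax1, Thy1 and Ptcra. Of 7 members tested, 6 rose and 0 fell, where 22.8% of 15503 genes tested rose and 21.6% fell (edgeR adjusted p under 0.05). All 6 passed under each of 17 alternatives and without the libraries numbered 2, where the counts over all genes were 2166 that rose and 1692 that fell, against 3531 and 3350 with them. With library size alone as the scaling, 4241 genes rose and 2642 fell, against 3531 and 3350, and the median of all genes stood at 0.126 in place of 0.017 on the log2 scale.

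Tcf7 was highest of the 7 groups in BM AGF+ KI/+ cells. It had 506, 378 and 394 CPM in AGF+ libraries, against 119, 42.8 and 37.8 CPM in total DC libraries, and rose by 2.699 ± 0.36 on the log2 scale (SE, n = 3 against 3, edgeR adjusted p = 0.000142). Lef1 had 92.2, 89.4 and 65.3 CPM in AGF+ libraries, against 21.5, 28.7 and 22.8 CPM in total DC libraries, and rose by 1.77 ± 0.19 (adjusted p = 4.08e-05). Both factors were thus higher in every AGF+ library than in any total DC library. Gata3 had 6.32, 7.27 and 9.63 CPM in AGF+ libraries, against 3.84, 6.56 and 3.28 CPM in total DC libraries, and the groups overlapped. Its log2 difference of 0.78 ± 0.30 did not pass (edgeR adjusted p = 0.0574), passed with the replicate number as a block (0.0393), with library size alone (0.0352), with no filter (0.0423) and with voom (0.0476), and was 1.13 without total DC replicate 2 (0.0155).

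Lck was near the floor in total DCs. It had 11.6, 14.4 and 20.7 CPM in AGF+ libraries, against 0.426, 0.410 and 0.193 CPM in total DC libraries, which hold 5 counts in all. It rose by 5.43 ± 0.39 (edgeR adjusted p = 2.55e-06). Lax1 had 23.7, 26.4 and 29.2 CPM in AGF+ libraries, against 0, 0.205 and 0 CPM in total DC libraries. With 418 counts against 1, it was 392-fold higher, with a counting interval of 70.0 to 15521 (edgeR adjusted p = 8.52e-07). Neither gene overlapped between the groups.

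Thy1 was the second most abundant member per kilobase in marrow, after Tcf7. It had 193, 304 and 313 CPM in AGF+ libraries, against 13.4, 82.96 and 39.9 CPM in total DC libraries, and rose by 2.58 ± 0.45 (edgeR adjusted p = 0.000883). Ptcra, which encodes the pre-T cell receptor α chain, had 3.88, 4.59 and 4.46 CPM in AGF+ libraries, against 0, 0.410 and 0.386 CPM in total DC libraries. These are 68 counts against 4, and Ptcra rose by 3.88 ± 0.48 (edgeR adjusted p = 9.17e-05). Every AGF+ library lay above every total DC library for both genes.

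Cd3e did not follow. It had 0, 0.191 and 0.535 CPM in BM AGF+ KI/+ libraries, against 0.426, 0.410 and 0 CPM in total DC libraries, 4 counts on each side, and was not tested. The other defining genes of mature T cells were as low: Trbc2, a β chain constant region, and Cd2 had 0 counts in both groups, Bcl11b, the factor that fixes T lineage commitment, had 3 counts in AGF+ cells against 1 in total DCs, and Cd3d had 6 against 6. The 12 T cell markers summed to 44.8 to 56.5 CPM in AGF+ cells, against 28.4 to 68.2 CPM in total DCs. Of the 6 that were tested, 4 rose and 1 fell, beside 22.8% and 21.6% of all genes. Single genes weigh heavily in this sum too. Cd6 had 9.71 ± 3.93 CPM in AGF+ cells, against 33.1 ± 12.4 CPM in total DCs (SD, n = 3 each).

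The same 5 lists in bone marrow stand beside the 22.8% of all genes that rose and the 21.6% that fell. Of 9 receptor genes tested, 4 rose and 1 fell, with a median log2 change of 0.47 beside 0.02 over all genes. Trdc had 282 counts in AGF+ cells against 0 in total DCs, at least 88.2-fold higher with a floor of 3 counts over the group. The α chain constant gene Trac and the ζ chain gene Cd247 rose by 3.71 ± 0.59 and 1.59 ± 0.30 (edgeR adjusted p = 0.000486 and 0.00136), while the coreceptor Cd6 fell by 1.76 ± 0.33 (adjusted p = 0.00144). Of 16 signalling genes tested, 6 rose and 5 fell (median -0.03). The Src family kinase Fyn, Rasgrp1 and the factor Nfatc2 fell by 1.42 ± 0.13, 2.15 ± 0.23 and 1.33 ± 0.15 (edgeR adjusted p = 1.37e-05, 3.39e-05 and 4.81e-05).

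Of 16 transcription factors tested, 8 rose and 4 fell (median 0.35). Bach2, a repressor of lymphoid cells, and Myb rose by 1.58 ± 0.20 and 1.45 ± 0.22 (edgeR adjusted p = 0.000119 and 0.000315), and Zbtb7b, the CD4 lineage factor, fell by 1.67 ± 0.30 (adjusted p = 0.00102). Of 11 early thymocyte and Notch genes tested, 5 rose and 4 fell (median 0.31). Dntt had 1368 counts in AGF+ cells against 2 in total DCs, 642-fold higher with an interval of 177 to 5303, and the recombinase gene Rag1 78 against 0, at least 24.4-fold higher. Spib rose by 3.07 ± 0.25 and the receptor gene Notch3 by 3.18 ± 0.39 (edgeR adjusted p = 6.89e-06 and 9.1e-05).

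Of 13 genes tested in the Wnt list, 7 rose and 0 fell (median 0.41). Axin2 had 16.8 ± 3.36 CPM in AGF+ cells, against 0.277 ± 0.328 CPM in total DCs (SD, n = 3 each), and rose by 5.83 ± 0.50 (edgeR adjusted p = 9.28e-06). Bcl9l, the cyclin gene Ccnd1 and Tcf7l1 rose by 2.50 ± 0.21, 2.46 ± 0.25 and 2.18 ± 0.32 (adjusted p = 8.17e-06, 2.41e-05 and 0.000276). Without the libraries numbered 2, the 5 lists in the order given had 3, 5, 5, 4 and 6 genes that rose in bone marrow and 1, 4, 2, 2 and 0 that fell.

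Summed markers of several other cell types were also higher in bone marrow AGF+ cells than in total DCs. Plasmacytoid DC markers, 8 genes, summed to 1347 to 1507 CPM in AGF+ cells, against 560 to 662 CPM in total DCs, and B cell markers to 213 to 261 CPM against 27.8 to 38.6 CPM. Progenitor markers, 8 genes, summed to 540 to 543 CPM in AGF+ cells, against 143 to 284 CPM in total DCs. Of the 6 tested, 4 rose and 1 fell, beside 22.8% and 21.6% of all genes. Kit, Meis1, Hoxa9 and Gfi1b had higher mean CPM in AGF+ cells, and Cd34, Mpo, Elane and Spink2 lower. Kit had 318 CPM against 115 CPM, while Mpo had 2 counts against 515 and Elane 0 against 98. Natural killer markers summed to 70.4 to 123 CPM in AGF+ cells, against 14.9 to 27.7 CPM in total DCs. Of the 4 natural killer markers tested, 4 rose and 0 fell, beside 22.8% and 21.6% of all genes. Gzmb had 1022 counts against 223 and Gzma 183 against 6, while Ncr1, a defining natural killer gene, had 0 counts in both groups. The part of such cells in the results was not tested.

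**Figure D4:**
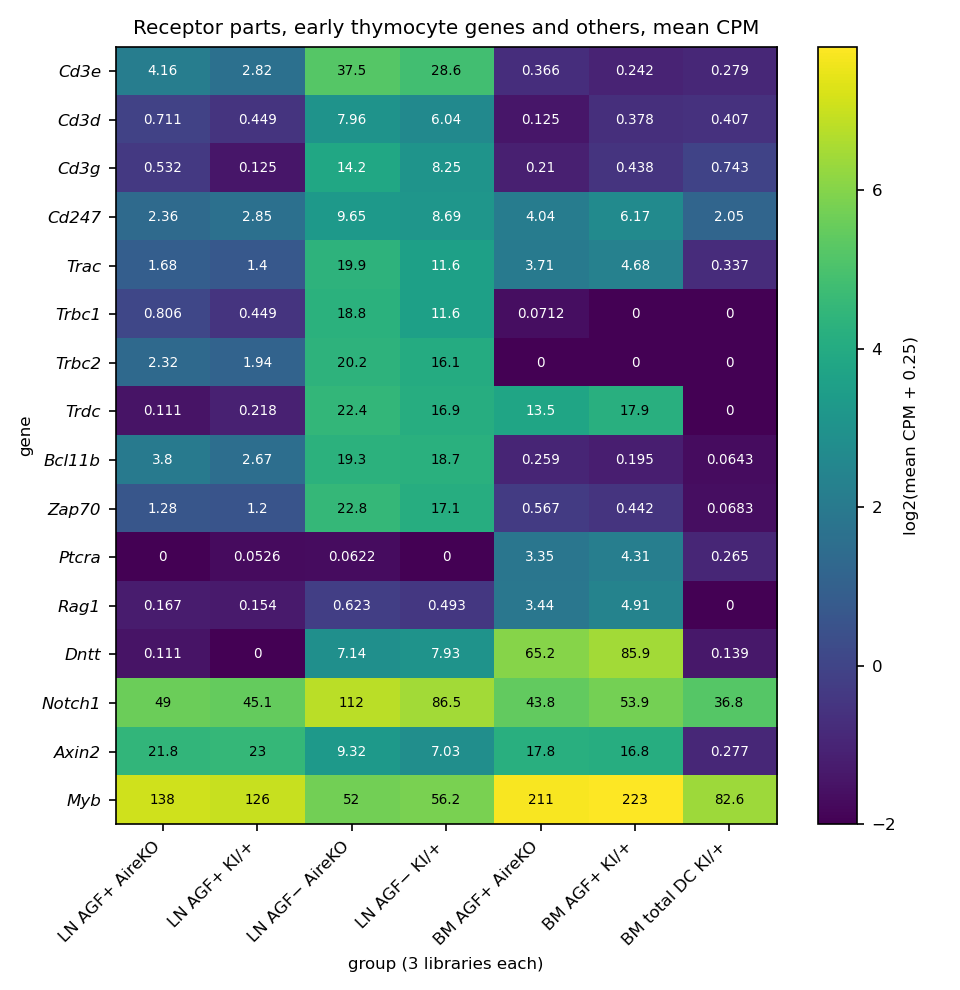
Mean CPM of 16 genes (rows), chosen after their values were seen, in the 7 groups (columns, 3 libraries each), with colour on a log2 scale after adding 0.25 CPM. BM AGF+ KI/+ cells combine 4.31 CPM of Ptcra and 85.9 CPM of Dntt with 0.242 CPM of Cd3e and 0 CPM of Trbc2.

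Between the AGF+ cells of the tissues, Lef1, Lax1, Thy1, Gata3 and Ptcra were lower in lymph node than in bone marrow, and Cd3e was higher. In KI/+ mice, 1 of 8 members was higher in lymph node and 5 were lower, where 27.2% of 17265 genes were higher and 27.1% lower (edgeR adjusted p under 0.05). In AireKO mice the counts were 1 and 5 as well, where 25.7% of genes were higher and 25.7% lower. Scaled by library size alone, 5546 genes were higher in AireKO mice and 3683 were lower, against 4436 and 4439, with the median of all genes at 0.194 in place of 0.043. Without the libraries numbered 2, 2879 were higher and 3405 lower in AireKO mice. LN AGF+ and BM AGF+ cells came through different gates, so tissue and gate cannot be told apart.

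Thy1 differed most among the members with counts on both sides. It had 1.26, 1.98 and 3.71 CPM in LN AGF+ KI/+ libraries, against 193, 304 and 313 CPM in BM AGF+ KI/+ libraries, and was lower by a log2 difference of -6.92 ± 0.77 (edgeR adjusted p = 2.68e-07). Lax1 was lower in lymph node by -4.59 ± 0.37 and Lef1 by -4.21 ± 0.72 (adjusted p = 3.79e-09 and 5.53e-05). Ptcra had 1 count in LN AGF+ KI/+ cells against 68 in BM AGF+ KI/+ cells, 75.6-fold lower with an interval of 13.1 to 3030, and 0 against 46 in AireKO mice, at least 17.4-fold lower. In AireKO mice Thy1, Lef1 and Lax1 differed by -7.29 ± 0.79, -3.93 ± 0.70 and -3.92 ± 0.39 (edgeR adjusted p = 2.18e-07, 0.000101 and 7.12e-08).

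Gata3 was lower in lymph node by -1.72 ± 0.58 in KI/+ and -1.75 ± 0.61 in AireKO mice (edgeR adjusted p = 0.0168 and 0.0207). Cd3e was the member that was higher in lymph node, by 3.37 ± 1.34 in KI/+ and 3.44 ± 1.24 in AireKO mice (adjusted p = 0.0397 and 0.0256). In KI/+ mice the Cd3e call was lost without the libraries numbered 2 (adjusted p = 0.107) and without each of LN AGF+ replicates 2 and 3 (0.115 and 0.0578) and BM AGF+ replicates 1, 2 and 3 (0.111, 0.0988 and 0.0618), in AireKO mice without LN AGF+ replicate 3 (0.0789) and each BM replicate (0.0545 to 0.0767), and with voom in both (0.163 and 0.151). The Gata3 call was lost in KI/+ mice without LN AGF+ replicate 2 (adjusted p = 0.0814) or BM AGF+ replicate 3 (0.0602), in AireKO mice without LN AGF+ replicate 2 or 3 (0.053 and 0.0672) or BM replicate 3 (0.0551), and there with voom (0.0715). Tcf7 did not pass, with differences of -0.43 (95% interval -1.09 to 0.23, adjusted p = 0.263) in KI/+ and -0.57 (-1.23 to 0.09, adjusted p = 0.141) in AireKO mice. Lck did not pass either, with -1.20 (-2.37 to -0.03, adjusted p = 0.0761) and -0.94 (-2.13 to 0.25, adjusted p = 0.177). Without LN AGF+ AireKO replicate 3 the AireKO difference of Lck was -2.23 (adjusted p = 0.00486). Other fits that called either gene in 1 or both genotypes were no filter (Lck 5e-06 and 0.000915, Tcf7 0.00582 and 0.000342) and the fit of only the 2 groups compared (Lck in KI/+ 0.00335, Tcf7 in AireKO 0.00624).

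The reporter difference itself was compared between the tissues in KI/+ mice with an interaction term. For Lck, Tcf7, Lef1, Lax1, Thy1 and Gata3 it was lower in lymph node than in bone marrow, 6 of 8 tested members, where 11.2% of 17265 genes were called lower (edgeR adjusted p under 0.05). For Lck the interaction was -7.81 ± 1.07 on the log2 scale and for Thy1 -5.98 ± 0.96 (adjusted p = 2.38e-05 and 0.000127). For Tcf7, which rose in both tissues, it was -1.37 ± 0.46 (adjusted p = 0.0376), a call lost without the libraries numbered 2 (0.164), where 1190 genes were called lower, against 1936 with them. It was also lost without any of these single libraries: LN AGF+ replicates 2 and 3 (0.0933 and 0.0629), LN AGF− replicates 1 and 3 (0.0799 and 0.0776), BM AGF+ replicates 1 and 3 (0.0848 and 0.051), and total DC replicates 2 and 3 (0.102 and 0.108). Cd3e and Ptcra did not pass (adjusted p = 0.434 and 0.876), and too few counts stood behind either in 1 of the tissues. The cells set against AGF+ cells are AGF− cells of one gate in lymph node and total DCs of another in bone marrow.

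Aire genotype left no member called. In LN AGF+ cells 0 of 7 tested members passed, where 0.0126% of 15884 genes, 2 genes, were called and 583 had an unadjusted p under 0.05. In LN AGF− cells 0 of 7 passed (0.0063% of genes called, 949 at unadjusted p), in BM AGF+ cells 0 of 7 (0.0129% of 15503 genes, 259 at unadjusted p), and in the interaction of genotype with reporter 0 of 7 (0.0063%, 261). The count of members was 0 under limma voom and DESeq2 as well. Of the members, Lax1 in BM AGF+ cells had an unadjusted p under 0.05. It had 13.5, 22.2 and 13.8 CPM in AireKO libraries, against 23.7, 26.4 and 29.2 CPM in KI/+ libraries, a log2 difference of -0.68 ± 0.23 (edgeR adjusted p = 1). Ptcra had 2.82, 3.42 and 3.82 CPM in BM AGF+ AireKO libraries, against 3.88, 4.59 and 4.46 CPM in KI/+ libraries. These are 46 counts against 68, with a difference of -0.37 (95% interval -1.06 to 0.32, edgeR unadjusted p = 0.26).

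The intervals bound what could be missed. For Tcf7 the genotype difference had a 95% interval of -0.73 to 0.34 in LN AGF+ cells and of -0.76 to 0.69 in BM AGF+ cells. For Lck it was -1.43 to 1.59 in LN AGF+ cells and -0.66 to 0.34 in BM AGF+ cells. Lef1 in LN AGF+ cells had the interval -1.66 to 2.46, with 0.669 to 14.5 CPM in AGF+ AireKO libraries and 2.52 to 6.77 CPM in AGF+ KI/+ libraries.

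Across the groups the members took different orders by mean CPM. Tcf7 ran from 426 in BM AGF+ KI/+ cells through 415 in BM AGF+ AireKO, 317 in LN AGF+ KI/+ and 280 in LN AGF+ AireKO cells to 127 and 120 in LN AGF− KI/+ and AireKO cells and 66.4 in BM total DCs, and the only gap between neighbours whose libraries did not overlap was that between LN AGF+ and LN AGF− cells. Lck was highest in LN AGF− AireKO cells, at 51.4, and lowest in total DCs, at 0.343, and only total DCs stood apart from their neighbour. Cd3e was 37.5 in LN AGF− AireKO cells and at most 0.366 in any marrow group. Thy1 was highest in BM AGF+ AireKO cells, at 289, and lowest in LN AGF+ AireKO cells, at 1.75. Lax1 was highest in LN AGF− AireKO cells, at 38.3, overlapping with LN AGF− KI/+ and BM AGF+ KI/+ cells, at 27.6 and 26.4.

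The genes with the most similar patterns, by Pearson correlation of log2 CPM over the 21 libraries among 10717 genes, were for Tcf7 Pcbp4, Mill2 and Zhx2 (r = 0.956, 0.952 and 0.947), for Lef1 Gem, Hmgb2 and D16Ertd472e (0.926, 0.923 and 0.921), and for Gata3 Hid1, Itgae and Kcna3 (0.901, 0.881 and 0.877). For Lck they were Zfpm1, Them6 and Crim1 (0.945, 0.935 and 0.934), for Lax1 Ly6d, Tlr7 and Stk26 (0.973, 0.969 and 0.954), and for Cd3e Apbb1ip, Celf2 and Prkacb (0.950, 0.945 and 0.942). For Thy1 they were D16Ertd472e, Racgap1 and Gzmb (0.963, 0.961 and 0.959) and for Ptcra Wdr59, Lrp8 and Dhx32 (0.976, 0.974 and 0.972). The points share 7 groups of libraries, so these coefficients describe group patterns, and no p is given.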

How the data were processed

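Per the labels' protocols, libraries were made from 1 ng of sorted-cell RNA (RIN above 7) and read as 150 bp pairs. Per the submitters' processing notes, HTSeq 0.11.2, STAR 2.7.3a, fastp 0.20.0, edgeR 3.38.1, Picard 2.21.1 and SAMtools 1.9 were used on mm10 (GRCm38). The sources used here do not give the strand setting, the annotation release or the treatment of multimapping reads. The authors deposited raw read counts per gene, of which 327 identifiers (0.0139% of counts) had no GENCODE vM21 symbol, and a normalized table that was not used here. No column of another sample was present.

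CPM uses TMM effective library sizes over all libraries. Tests were edgeR 4.0.16 quasi-likelihood F tests in R 4.3.3 (TMM normalization, filterByExpr by group, significance at a Benjamini-Hochberg adjusted p under 0.05 over all genes tested) in 1 fit for lymph node, 1 for bone marrow and 1 of all 21 libraries between tissues, without the replicate block. Libraries were grouped by title, and none was left out of the main results. The script was tested on simulated counts. Promoters are from RefSeq, gene positions from GENCODE. Other tools were limma 3.58.1, DESeq2 1.42.0, Python 3.11.15, pandas 2.3.3, numpy 2.4.6 and matplotlib 3.10.9. At these depths 1 CPM corresponds to 3.92 to 6.58 counts per library.

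Deviations from group means correlated above 0.1 for every replicate number in all 6 comparisons within a tissue (lowest 0.142), so libraries of 1 number were alike there. The main tests did not use this pairing. Between tissues the correlations for replicates 1, 2 and 3 were 0.214, 0.193 and 0.00995 in KI/+ mice. They were 0.0979, 0.301 and 0.0910 in AireKO mice, and these values do not settle whether the numbers pair samples between tissues. Named genes are all members, Aire, the 4 genes of each list with the smallest p in KI/+ lymph node and in bone marrow, and the 3 genes most similar to each member without predicted genes, pseudogenes and receptor segments. Some genes that this rule names are not reported here. Others were chosen after their values were seen. The members and lists were chosen with earlier results of these data known.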

Additional observations from a re-analysis of the deposited data

Results flagged for a closer look

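The reporter difference in KI/+ mice (AGF+ over AGF− cells in lymph node against AGF+ over total DCs in bone marrow) differed between the tissues by an interaction test for 6 members and Aire. The edgeR adjusted p was 2.38e-05 for Lck, 0.0376 for Tcf7, 0.0236 for Lef1, 1.15e-10 for Lax1, 0.000127 for Thy1 and 0.0132 for Gata3. Lef1 had an interaction of -3.19 ± 0.98 and Gata3 of -2.85 ± 0.79 on the log2 scale. The fitted value of Lax1 depends on 1 count in total DCs and is not given. The Lef1 call was lost without LN AGF+ KI/+ replicate 1 (adjusted p = 0.0587) or LN AGF− KI/+ replicate 3 (0.158).

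Aire had an interaction of -3.61 ± 0.35 between the tissues (edgeR adjusted p = 5.13e-07), and its reporter difference in lymph node was lower in AireKO than in KI/+ mice, by an interaction of -1.998 ± 0.218 (adjusted p = 0.00451).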

How the results depend on the processing

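Each comparison was repeated with DESeq2 size factors, library size alone, other filters on low counts, DESeq2, limma voom, fits of only the groups compared, a stricter threshold, the replicate block, each library left out and without the libraries numbered 2. No member's called direction reversed. In KI/+ lymph node, where 6 members passed, 3 passed with limma voom and 3 at an adjusted p under 0.01, and 3 to 6 with a library left out. The interaction of reporter with tissue kept 3 of 6 members at an adjusted p under 0.01 and 4 to 6 with a library left out. In AireKO lymph node 5 to 7 members passed with a library left out, in bone marrow 6 to 7, between the tissues 4 to 6 in each genotype, and for genotype 0 throughout. Over all genes, these fits called 2271 to 2923 in KI/+ and 2874 to 4126 in AireKO lymph node. They called 5672 to 7550 in bone marrow, and 8060 to 8932 (KI/+) and 7621 to 8269 (AireKO) between the tissues. The interaction with tissue had 2934 to 3897 and genotype at most 89. Counts over all genes with voom and with the block are not given here. The Tcf7 interaction was lost when 1 of 8 libraries was left out in turn (adjusted p of 0.051 to 0.108) and in the fit of the groups compared (0.0596), the Gata3 interaction with voom (0.0675), while Ptcra passed with voom (0.00716) and Cd3e with no filter (0.0368). With the replicate block, Lck passed between tissues in KI/+ (edgeR adjusted p = 0.0199) and AireKO mice (0.0285), where 7 members passed in each. Whether replicate numbers pair samples between tissues is not settled. The block changed no other call than those of Lef1 and Gata3 given above. Without the libraries numbered 2, 877 genes rose and 1065 fell in KI/+ lymph node, 2166 and 1692 in bone marrow, and 593 and 1190 in the interaction with tissue, against 1603 and 1746, 3531 and 3350, and 1684 and 1936. At an adjusted p under 0.01, 841 and 971 genes passed in KI/+ lymph node, 1019 and 1314 in AireKO lymph node, against 1812 and 2114, and 876 and 1235 in the interaction. With no filter 13 and 84, 68 and 202, 13 and 13, and 2 and 12 genes passed for genotype in LN AGF+, LN AGF− and BM AGF+ cells and its interaction with reporter. The gene list counts that leave out libraries numbered 2 were chosen after seeing the data. Ptcra in lymph node and Cd3e in bone marrow had too few counts to pass the filter.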
